A study of Homo sapiens with 6 samples.

Results

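Mitogen-activated protein kinase (MAPK) feedback was followed through 10 genes in PC-3 cells, an androgen-independent human line grown from a bone metastasis of prostate cancer. The genes were taken by symbol from a count table of 30651 genes: the MAPK phosphatases DUSP1, DUSP4, DUSP5, DUSP6 and DUSP7, the Sprouty genes SPRY2 and SPRY4, the Sprouty-related SPRED1 and SPRED2, and the transcription factor EGR1. The MTA1 group held 3 libraries of PC-3 cells whose data columns carry the prefix shMTA1, the usual way of writing a short hairpin RNA against MTA1, a subunit of the NuRD chromatin-remodelling complex. The Ctrl group held 3 libraries of the same line in columns headed NC, which were read as the control because no other columns were left. Cells of both groups grew in medium with serum, and the labels mention lentivirus and stable clones without saying how many hairpins or clones were used, what the control cells carried, or whether libraries of a group came from separate cultures. What the p-values measure is thus how far single libraries scatter, and part or all of that scatter may be technical.

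In the ERK branch of MAPK signalling, growth factor receptors act through RAS, RAF and MEK on the kinases ERK1 and ERK2, while the JNK and p38 branches carry stress signals. Active ERK switches on immediate early genes, EGR1 among them, and also genes whose products damp the cascade. The dual-specificity phosphatases strip phosphate from the activation loop of the kinases, Sprouty proteins interfere with signalling from receptors to RAS and RAF, and SPRED proteins bring the RAS-inactivating protein neurofibromin to the membrane. The levels of such transcripts are often used as a readout of ERK output in tumour cells.

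The libraries held 29909172 to 30938820 counts in the MTA1 group and 31726013 to 33849262 counts in Ctrl, and 15423 genes, with all 10 feedback genes among them, had enough counts to be tested. MTA1 itself had 528, 572 and 519 counts in the MTA1 group, against 1185, 1331 and 1352 counts in Ctrl, which is 43.4% of the Ctrl level after scaling (log2 fold change -1.21 ± 0.054 SE, edgeR adjusted p = 4.3e-13). The epithelial keratins KRT8 and KRT18 were abundant in every library, and the prostate antigen gene KLK3 had at most 1 count. Of 4 fibroblast markers, COL1A1 and PDGFRB were lower in the MTA1 group, COL1A2 (-0.59, edgeR adjusted p = 0.06) and DCN (0.47, adjusted p = 0.083) did not pass, and 1 was higher with scaling by library size. The list, mostly COL1A1, summed to 2.11 to 2.19 FPKM in the MTA1 group and 3.47 to 3.82 FPKM in Ctrl. Leukocyte markers summed to at most 0.61 FPKM in the MTA1 group and 0.87 FPKM in Ctrl, with PTPRC at 0 to 3 counts, and endothelial markers to at most 1.29 FPKM in the MTA1 group and 1.44 FPKM in Ctrl. The part of these markers in the results was not tested.

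Promoter sequence is shown for EGR1 and DUSP1, which were lower in the MTA1 group, and for DUSP7, which was higher. Each line is the 250 bases before the annotated start site, read 5′ to 3′ on the gene's strand, from RefSeq (GRCh38.p14). Capitals mark the core of the cyclic AMP response element, TGACG or its complement CGTCA, and the CArG box bound by serum response factor (SRF).
EGR1, chr5:138465229-138465478, plus strand: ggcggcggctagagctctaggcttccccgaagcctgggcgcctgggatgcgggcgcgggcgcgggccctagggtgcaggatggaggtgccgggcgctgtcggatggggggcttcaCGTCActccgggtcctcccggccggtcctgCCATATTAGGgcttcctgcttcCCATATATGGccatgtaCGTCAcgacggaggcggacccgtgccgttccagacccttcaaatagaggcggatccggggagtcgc
DUSP1, chr5:172771196-172771445, minus strand: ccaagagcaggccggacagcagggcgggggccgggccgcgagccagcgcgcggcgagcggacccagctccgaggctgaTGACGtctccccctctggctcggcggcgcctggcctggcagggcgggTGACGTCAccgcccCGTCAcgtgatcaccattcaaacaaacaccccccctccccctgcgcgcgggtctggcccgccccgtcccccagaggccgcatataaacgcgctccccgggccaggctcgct
DUSP7, chr3:52056572-52056821, minus strand: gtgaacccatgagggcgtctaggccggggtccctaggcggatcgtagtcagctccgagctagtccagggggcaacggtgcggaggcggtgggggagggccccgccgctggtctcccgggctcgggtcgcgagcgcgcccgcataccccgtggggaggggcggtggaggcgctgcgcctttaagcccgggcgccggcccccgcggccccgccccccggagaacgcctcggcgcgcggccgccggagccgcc
In the EGR1 promoter, 2 CArG boxes end 96 and 74 bases before the start site and lie between 2 TGACG cores. The DUSP1 promoter holds 4 TGACG cores in all, counted over both strands, a pair of which overlap to form the full element TGACGTCA, and no CArG box. Neither motif was found in the DUSP7 window, which says only that these letters are not in it.

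Promoter windows of 300 bases (250 before the start site and 50 after) matched 8 of the 10 genes, all but DUSP4 and DUSP5. Searched on both strands, the TGACG core was in a window of 5 of these genes (EGR1, DUSP1, SPRY2, SPRY4 and SPRED2), against 24.6% of 35116 windows of the same length in the table. CArG boxes were found in EGR1 alone among the 8 genes, against 1.29% of windows. The EGR1 binding motif GCGNGGGCG was in the windows of EGR1, SPRY2 and SPRY4, against 9.43% of windows, and the ETS motif CCGGAA in that of SPRY2, against 17.2%. The 8 genes have 11 windows, since SPRY2 and SPRED2 have more than 1. A count of genes and a share of windows are thus unlike measures, and the counts were not tested against the shares. A match is a description of the letters and not evidence that a factor binds.

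Levels per gene length differed widely among the feedback genes. They are given in FPKM, the deposited values scaled for gene length and depth, over all 6 libraries. EGR1 was the most abundant, at 31.35 to 37.97 FPKM, followed by DUSP1 at 11.5 to 15.3, DUSP4 at 5.73 to 6.11 and DUSP5 at 3.05 to 4.38 FPKM. None of these ranges overlapped the next, so EGR1 and the nuclear phosphatases DUSP1, DUSP4 and DUSP5 stood above the other feedback genes in both groups. The order of DUSP1 and DUSP4 rests on the scaling for gene length. In raw counts DUSP4 (1409 to 1607) stood above DUSP1 (788 to 1178). The remaining members were all lower. DUSP7 had 0.36 to 0.54 FPKM, SPRED2 0.31 to 0.43, SPRY2 0.20 to 0.40, SPRED1 0.23 to 0.28 and DUSP6 0.19 to 0.33 FPKM, and each of these ranges overlapped the next. SPRY4 was the lowest, at 0.06 to 0.10 FPKM. Among the tested genes, EGR1 was at the 92.5th percentile of mean FPKM and SPRY4 at the 3.18th.

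**Figure D1:**
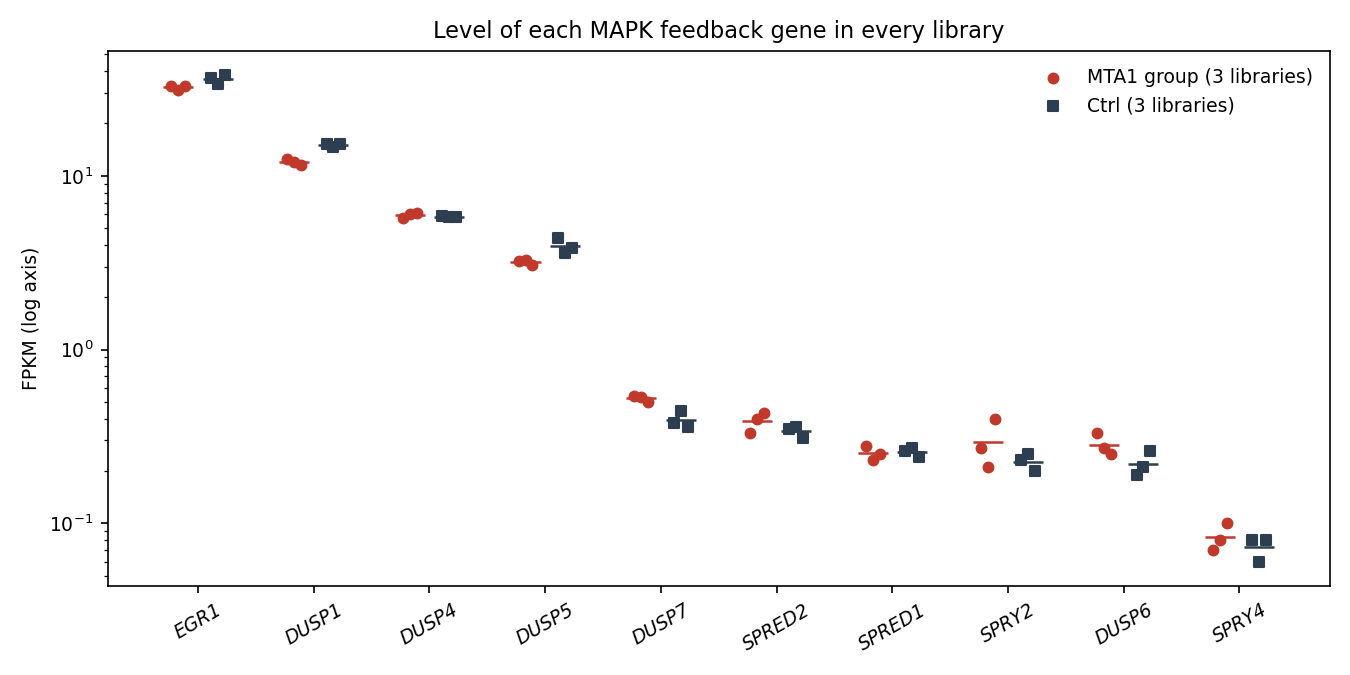
FPKM (log axis) of the 10 MAPK feedback genes, with 1 point per library, the MTA1 group as circles, Ctrl as squares and bars at the group means. EGR1, DUSP1, DUSP4 and DUSP5 lie above 3 FPKM in every library and the other 6 genes between 0.06 and 0.54 FPKM.

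The MAPK feedback genes did not move as a block. By the quasi-likelihood test of edgeR, with a threshold of 0.05 on the adjusted p, DUSP1, DUSP5 and EGR1 were lower in the MTA1 group, DUSP7 was higher, and the other 6 genes did not pass. That is 4 of 10 genes, against 58.1% of all tested genes (29.5% higher and 28.6% lower). The same 4 genes were the ones whose scaled levels did not overlap between the groups, against 62.7% of all tested genes. The log2 fold changes of the 10 genes ran from -0.40 to 0.34 with a median of 0.04, while the middle of all tested genes, from the 25th to the 75th percentile, ran from -0.28 to 0.30 with a median of 0.002. When the test asked for a change of more than 1.2-fold, DUSP1 alone passed (glmTreat adjusted p = 0.0095), against 30.1% of all tested genes. With libraries scaled by their size only, no member passed that minimum (DUSP1 adjusted p = 0.096), and without Ctrl replicate 2 DUSP5 passed beside DUSP1 (glmTreat adjusted p = 0.031). In RNA of whole cultures, fewer cells that express a gene and less RNA per cell cannot be told apart.

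**Figure D2:**
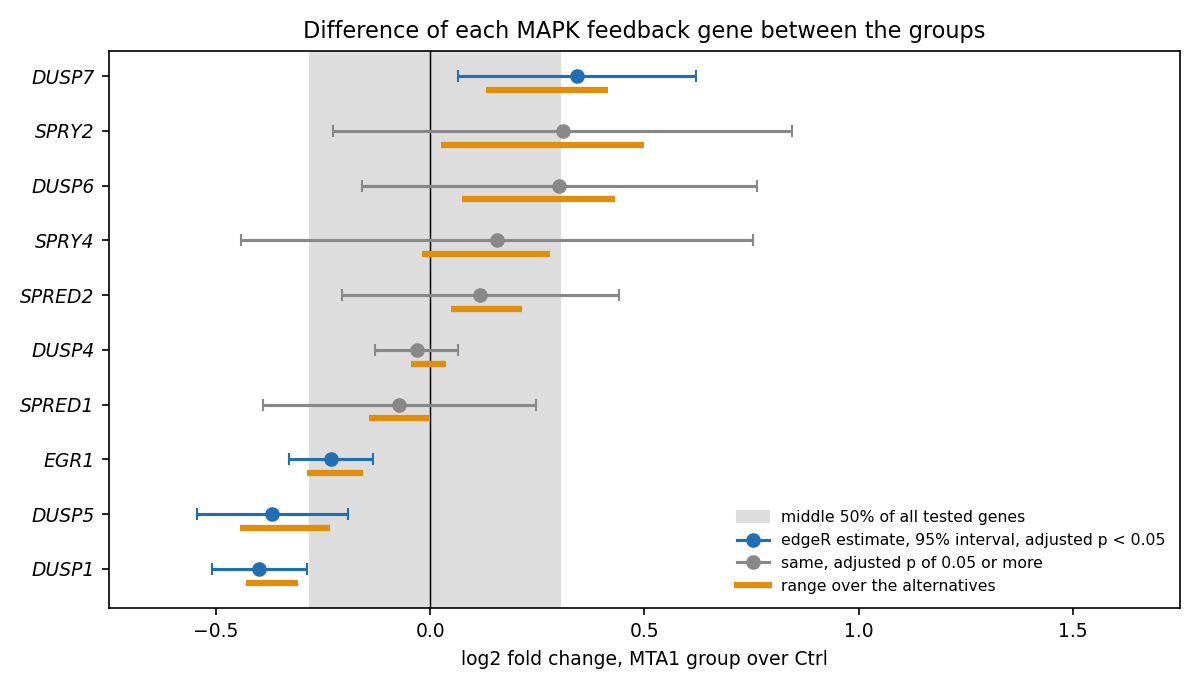
Log2 fold change of each gene, MTA1 group over Ctrl, with its 95% interval from edgeR (blue where the adjusted p is under 0.05), the range over the other processing settings in orange, and the middle 50% of all tested genes in grey. DUSP1 and DUSP5 lie below the grey band, DUSP7 above it together with SPRY2, which did not pass, and the widest intervals belong to the genes with the fewest counts.

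EGR1, a zinc-finger transcription factor of the immediate early class (ENSG00000120738.8, chromosome 5), was lower in the MTA1 group by a small margin. On the CPM scale, which corrects counts for depth and TMM factors, it had 114, 109 and 113 CPM in MTA1 replicates 1, 2 and 3, and 134, 122 and 138 CPM in Ctrl replicates 1, 2 and 3. All 3 MTA1 libraries were below all 3 Ctrl libraries, and the 3 MTA1 libraries lay closer together. The means were 112 ± 2.56 CPM and 131.5 ± 8.63 CPM (SD, n = 3 each), a log2 fold change of -0.23 ± 0.047 (edgeR adjusted p = 0.00027). In FPKM the groups stood at 32.7, 31.35 and 32.9 in the MTA1 group and 36.7, 33.8 and 37.97 in Ctrl. The call held under all 16 alternatives, with values from -0.29 to -0.16, and the minimum fold of 1.2 was not passed (adjusted p = 0.77).

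DUSP1, the nuclear MKP-1 that acts on p38 and JNK as well as ERK (ENSG00000120129.6, chromosome 5), was lower in the MTA1 group. It had 27.9, 26.8 and 25.4 CPM in the MTA1 replicates and 35.8, 34.0 and 35.8 CPM in the Ctrl replicates. The groups did not overlap, and the gap between them was several times the spread within either. The means of 26.7 ± 1.27 CPM in the MTA1 group and 35.2 ± 1.04 CPM in Ctrl (SD, n = 3 each) gave 75.8% of the Ctrl level (log2 fold change -0.40 ± 0.053, edgeR adjusted p = 2.2e-06). Under the 16 alternatives the value stayed between -0.43 and -0.31 and passed each time. DUSP5, a nuclear phosphatase specific for ERK (ENSG00000138166.6, chromosome 10), had 277, 291 and 263 counts in the MTA1 libraries and 400, 340 and 370 counts in Ctrl. Every MTA1 library was lower than every Ctrl library, although Ctrl varied more, at 8.91 ± 0.383 CPM against 11.5 ± 1.31 CPM (SD, n = 3 each). The log2 fold change was -0.37 ± 0.084 (edgeR adjusted p = 0.00092), and it passed under all 16 alternatives, between -0.44 and -0.23. The 0.23 was reached on the scale of log2(FPKM + 1), which shrinks changes of low values.

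DUSP4, the nuclear MKP-2 (ENSG00000120875.9, chromosome 8), did not pass in spite of its depth. It had 46.2, 48.5 and 48.8 CPM in the MTA1 replicates and 49.55, 48.3 and 48.85 CPM in Ctrl, so the groups overlapped within a narrow range. Its log2 fold change of -0.03 had a 95% interval of -0.13 to 0.06, or 0.915-fold to 1.05-fold, and its sign turned with library-size scaling (0.04) and on both FPKM scales (0.03 and 0.04). DUSP4 took a larger share of the summed FPKM of the phosphatase members in the MTA1 group. Other phosphatases were left out of that sum, among them DUSP9 at a mean of 9.93 FPKM over all libraries. Of the FPKM summed over DUSP1, DUSP4, DUSP5, DUSP6 and DUSP7, DUSP4 made up 25.7%, 27.3% and 28.6% in the MTA1 libraries, against 22.4%, 23.4% and 22.6% in Ctrl. DUSP1 made up 56.0%, 54.3% and 53.7% in the MTA1 libraries and 58.55%, 59.5% and 60.0% in Ctrl. Neither share overlapped between the groups. The DUSP4 share was set beside that of DUSP1 after their values were seen.

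DUSP6 and DUSP7 are the cytoplasmic phosphatases with a preference for ERK, known as MKP-3 and MKP-X. DUSP7 (ENSG00000164086.10, chromosome 3) had 103, 106 and 96 counts in the MTA1 libraries and 77, 93 and 79 counts in Ctrl. The groups did not overlap, at 3.27 ± 0.156 CPM in the MTA1 group and 2.58 ± 0.232 CPM in Ctrl (SD, n = 3 each). The log2 fold change of 0.34 ± 0.13 passed narrowly (edgeR adjusted p = 0.033). The call ended without MTA1 replicate 1 (0.32, adjusted p = 0.082), without MTA1 replicate 2 (0.33, 0.079), without Ctrl replicate 1 (0.31, 0.089), without Ctrl replicate 3 (0.29, 0.11) and with the Wald test of DESeq2 (0.34, 0.16). DUSP6, often the most direct ERK readout of the family (ENSG00000139318.8, chromosome 12), had few counts in these cells. There were 43, 37 and 33 counts in the MTA1 libraries and 26, 31 and 38 counts in Ctrl, and the groups overlapped. Its log2 fold change of 0.30 had a 95% interval of -0.16 to 0.76 (edgeR adjusted p = 0.25), or 0.895-fold to 1.70-fold. At this depth neither a small fall nor a rise within that interval was excluded.

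Summed by class, the FPKM of DUSP1, DUSP4 and DUSP5 was lower in every MTA1 library than in any Ctrl library. For the pair DUSP6 and DUSP7 the sum was higher in every MTA1 library than in any Ctrl library. Such gaps were common: 62.7% of all tested genes, taken singly, did not overlap between the groups in scaled level. DUSP4 alone was not lower in FPKM (means of 5.95 in the MTA1 group and 5.80 in Ctrl), and DUSP6 alone overlapped. With 3 against 3 libraries, no outcome of the exact permutation test could pass 0.05, so it decides nothing here. DUSP1, DUSP4 and DUSP5 together had 21.5, 21.2 and 20.6 FPKM in the MTA1 libraries and 25.5, 24.1 and 24.9 FPKM in Ctrl, or 85.1% of the Ctrl mean. DUSP6 and DUSP7 together had 0.87, 0.80 and 0.75 FPKM in the MTA1 libraries and 0.57, 0.65 and 0.62 FPKM in Ctrl, or 131.5% of the Ctrl mean. This does not extend to cytoplasmic ERK phosphatases in general: with DUSP9 added, a choice made after seeing the data, the sum was 8.64, 8.93 and 8.10 FPKM in the MTA1 libraries and 13.1, 12.8 and 12.3 FPKM in Ctrl. The exact permutation test gave p = 0.1 for each, 2-sided, which is the smallest that 3 against 3 libraries allow (0.2 adjusted over 4 classes). The log2 ratio of DUSP1 to DUSP6, which does not depend on library scaling, was 5.24, 5.47 and 5.52 in the MTA1 libraries and 6.33, 6.13 and 5.88 in Ctrl, again without overlap (exact permutation p = 0.1, 0.3 adjusted over 6 ratios). The ratio of DUSP5 to DUSP6 gave means of 3.50 ± 0.179 in the MTA1 group and 4.16 ± 0.332 in Ctrl (SD, n = 3 each; exact permutation p = 0.1). The ratios of DUSP4 to DUSP6, DUSP7 to DUSP6, SPRY4 to SPRY2 and SPRED2 to SPRED1 overlapped between the groups (exact permutation p from 0.3 to 1). Rounding of the deposited FPKM to 2 decimals limits the ratios of the low genes.

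**Figure D3:**
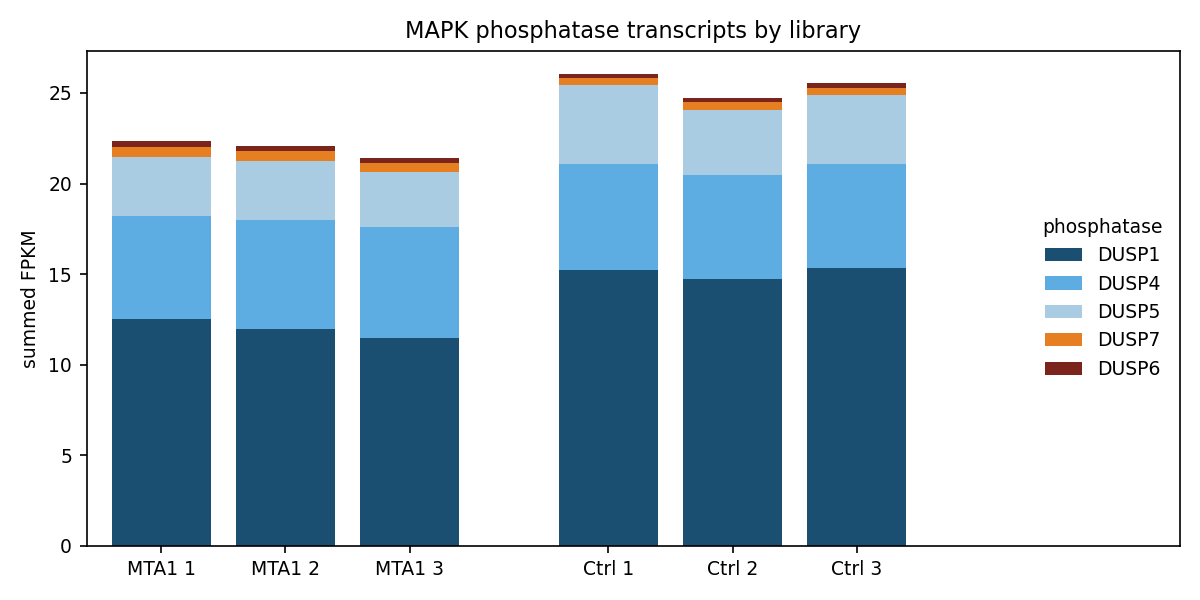
FPKM of the 5 phosphatase members stacked in each library, MTA1 replicates 1 to 3 on the left and Ctrl replicates 1 to 3 on the right. The total is 21.4 to 22.3 FPKM in the MTA1 libraries and 24.7 to 26.0 FPKM in Ctrl, and the DUSP1 segment carries most of the gap.

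The Sprouty genes were too low for a firm statement. SPRY2 (ENSG00000136158.12, chromosome 13), which blocks RAS activation downstream of several receptors, had 29, 24 and 44 counts in the MTA1 libraries and 27, 30 and 24 counts in Ctrl. MTA1 replicate 3 stood above the rest, and the other libraries overlapped. The log2 fold change of 0.31 (95% interval -0.23 to 0.84, edgeR adjusted p = 0.31) was 0.03 without that library. SPRY4 (ENSG00000187678.10, chromosome 5), a relative that also acts on RAF, had 15, 18 and 23 counts in the MTA1 libraries and 18, 14 and 20 counts in Ctrl. These groups overlapped as well, and the value of 0.16 (interval -0.44 to 0.75, adjusted p = 0.67) turned to -0.02 without MTA1 replicate 3. The intervals ran from 0.855-fold to 1.80-fold for SPRY2 and from 0.736-fold to 1.69-fold for SPRY4. At this depth neither a fall nor a rise within them was excluded. Summed, the pair had 0.34, 0.29 and 0.50 FPKM in the MTA1 libraries and 0.31, 0.31 and 0.28 FPKM in Ctrl.

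SPRED1 and SPRED2, which recruit neurofibromin, did not pass either. SPRED1 (ENSG00000166068.13, chromosome 15) had 73, 63 and 67 counts in the MTA1 libraries and 72, 79 and 70 counts in Ctrl, a log2 fold change of -0.07 (95% interval -0.39 to 0.25, edgeR adjusted p = 0.71). SPRED2 (ENSG00000198369.10, chromosome 2) had 62, 78 and 80 counts in the MTA1 libraries and 70, 74 and 66 counts in Ctrl, a log2 fold change of 0.12 (95% interval -0.21 to 0.44, adjusted p = 0.54). In both genes the groups overlapped. Summed, the pair had 0.61, 0.63 and 0.68 FPKM in the MTA1 libraries and 0.61, 0.63 and 0.55 FPKM in Ctrl. Genes annotated on the opposite strand of DUSP1, DUSP6 and SPRY4 in GENCODE had at most 2 counts in any library. AC012370.1, which overlaps SPRED2 on the same strand, has no counts of its own in these data. Its part in the SPRED2 counts was not tested.

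Most genes in a list of other MAPK phosphatases and their relatives, outside the 10 genes, were lower too. The list includes STYX (-0.51), a relative without phosphatase activity. Of 9 tested, 7 were lower in the MTA1 group and none higher, with a median log2 fold change of -0.51 (7 and 0 at an unadjusted p under 0.05 and with limma-voom, 5 and 0 with DESeq2). Of all tested genes, 28.6% were lower and 29.5% higher, and DESeq2 called 41.8% in either direction. DUSP9, a cytoplasmic ERK phosphatase, had 23.9, 24.98 and 22.3 CPM in the MTA1 libraries and 40.4, 38.5 and 37.7 CPM in Ctrl (-0.71 ± 0.055, edgeR adjusted p = 1.1e-09). DUSP2, a nuclear inducible member, had 5.84, 6.02 and 6.22 CPM in the MTA1 libraries and 10.3, 11.45 and 8.91 CPM in Ctrl (-0.76 ± 0.095). DUSP3, a small phosphatase that also acts on ERK and JNK, had 44.75 ± 0.936 CPM in the MTA1 group and 63.8 ± 0.825 CPM in Ctrl (SD, n = 3 each; -0.51 ± 0.045). Taking the 10 classical MAPK phosphatases together, a grouping made after the values were seen, 6 were lower (DUSP1, DUSP2, DUSP5, DUSP8, DUSP9 and DUSP10), DUSP7 was higher, and DUSP4, DUSP6 and DUSP16 did not pass (4 lower and 0 higher with DESeq2). Their summed level was 34.3 to 35.6 FPKM in the MTA1 libraries and 44.0 to 46.0 FPKM in Ctrl.

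Further feedback genes and ERK outputs moved unequally. Among 8 tested genes of other Sprouty, SPRED and receptor feedback, 2 were higher, a share near the 29.5% of all tested genes, and none lower, with a median of 0.03 (2 and 0 at an unadjusted p under 0.05 and with limma-voom, 1 and 0 with DESeq2). ERRFI1, which inhibits the EGF receptor directly, had 30.4 ± 1.21 CPM in the MTA1 group and 12.3 ± 0.908 CPM in Ctrl (1.30 ± 0.062, edgeR adjusted p = 9.4e-13), where no member's value exceeded 0.40 in size. SPRED3 was higher as well, from low counts (0.66 ± 0.24, adjusted p = 0.022). Of 14 other ERK output genes tested, 10 were higher and 2 lower, against 29.5% and 28.6% of all tested genes, with a median of 0.37. PLAUR, the urokinase receptor (0.81 ± 0.043), the cytokine LIF (1.07 ± 0.079) and the survival gene MCL1 (0.55 ± 0.043) were higher, while CCND1, the cyclin that links ERK to the cell cycle, was lower, at 6.93 ± 0.202 CPM in the MTA1 group and 15.0 ± 0.380 CPM in Ctrl (-1.11 ± 0.072). ETV5 and PHLDA1 were among the higher genes and are named with their values known. They do not stand for the whole list. ETV4 (0.25) and EPHA2 (0.22) were higher by less, and SPHK1 (-0.17) was lower, as was CCND1. ETV5 had 12.1, 12.4 and 12.5 CPM in the MTA1 libraries and 6.89, 7.48 and 6.96 CPM in Ctrl, and PHLDA1 had 16.7, 16.8 and 16.05 CPM in the MTA1 libraries and 12.3, 12.1 and 10.85 CPM in Ctrl.

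The list of EGR family and immediate early genes was split. Of 20 tested, 5 were higher and 10 lower, against 29.5% and 28.6% of all tested genes, with a median of -0.15. The list also holds the EGR co-repressors NAB1, counted among the lower (-0.43), and NAB2, counted among the higher (0.49). NR4A1, an orphan nuclear receptor, had 50.5, 51.0 and 48.9 CPM in the MTA1 libraries and 156, 154 and 153 CPM in Ctrl (-1.62 ± 0.042, edgeR adjusted p = 9.4e-17). JUNB (-0.87 ± 0.042) and CCN1 (-0.60 ± 0.041) were lower, and JUN, another AP-1 subunit, was higher (0.82 ± 0.039). FOS, chosen after its values were seen, had 117, 118.5 and 116 CPM in the MTA1 libraries and 138, 147.5 and 142 CPM in Ctrl (-0.28 ± 0.041). Its relative FOSB did not pass (0.09, edgeR adjusted p = 0.18), and IER2 was lower by less (-0.105). EGR2 did not pass (-0.31, adjusted p = 0.42), and EGR3 and EGR4 had too few counts to be tested.

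The kinases and factors upstream went both ways. Of 23 genes of the ERK cascade, 7 were higher and 8 lower, shares near the 29.5% and 28.6% of all tested genes, with a median of 0.07. With scaling by library size the balance turned, to 11 higher and 7 lower with a median of 0.14. EGFR had 27.7 ± 0.630 CPM in the MTA1 group and 13.5 ± 0.536 CPM in Ctrl (1.04 ± 0.057, edgeR adjusted p = 6.5e-12). MAPK3, which encodes ERK1, was lower (-0.50 ± 0.057), as were MAP2K2, which encodes MEK2 (-0.31 ± 0.041), and NRAS (-0.31 ± 0.057). Of 14 genes of the JNK and p38 cascades, 3 were higher, MAPK12, MAPK13 and MAP2K3, and 3 lower, with MAP2K6 at -0.48 ± 0.059 and a median of -0.02. Of 8 genes for SRF and its partners, 3 were higher, among them SRF (0.14 ± 0.054) and ETS1 (0.28 ± 0.069), and 3 lower, with MRTFB at -0.60 ± 0.10 and a median of 0.12. DESeq2 called 1 of the SRF list higher and 3 lower. With scaling by library size, the medians of the EGR and immediate early, JNK and p38, and SRF lists were -0.08, 0.05 and 0.19.

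**Figure D4:**
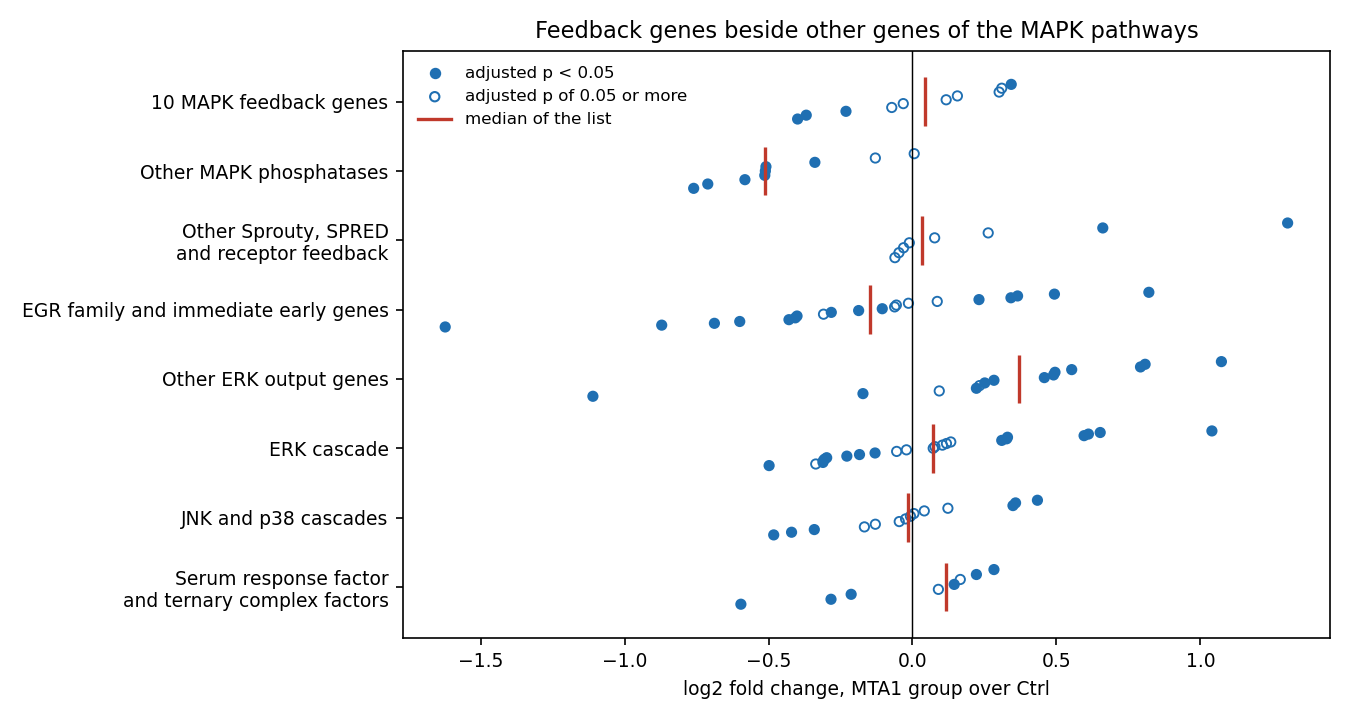
Log2 fold change, MTA1 group over Ctrl, of every tested gene in 8 lists, filled where the edgeR adjusted p is under 0.05, with a red line at each list's median. The 10 feedback genes lie between -0.40 and 0.34, the other MAPK phosphatases mostly to the left with a median of -0.51, and the other ERK output genes mostly to the right with a median of 0.37.

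The genes whose levels across the 6 libraries lay nearest to those of DUSP1, out of 10643 protein genes compared by the distance between centred log2 CPM values, were MYL6, RFC2 and NDUFB7, at distances of 0.046 to 0.057. For DUSP7 they were SQOR, NUP155 and LARS1, at 0.0745 to 0.095. Their log2 fold changes were -0.41 to -0.38 for the genes near DUSP1 and 0.33 to 0.37 for those near DUSP7. Likeness to the fold changes of DUSP1 and DUSP7 follows from how the genes were picked and is no separate result.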

How the data were processed

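Total RNA of PC-3 cells was sequenced from stranded libraries, per the labels. The authors deposited raw counts per gene and FPKM values, which they had scaled for gene length and depth and rounded to 2 decimals. For the aligner, counting tool, gene lengths, build and annotation, the status is: not given in the sources used here. DESeq2 is listed in the submitters' processing notes, with no step attached.

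The whole count table was analysed in R 4.3.3 with edgeR 4.0.16: filterByExpr, TMM, and a quasi-likelihood F test of group, without further terms. P-values of the 15423 genes kept were adjusted by Benjamini-Hochberg and called at 0.05. Standard errors and 95% intervals come from that fit. A minimum fold of 1.2 was tested with glmTreat. Levels are TMM-scaled CPM, or FPKM where genes are compared or summed. Class sums and ratios were tested by exact permutation of the 6 libraries. Alternatives used DESeq2 1.42.0 and limma 3.58.1.

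The 10 genes, the lists and the tests were chosen with earlier results of these data known. By the rule for naming, each list gave up to 3 genes with the smallest p in its main direction and 1 in the other. Further genes are marked. Likeness was measured among protein genes with a mean of 2 CPM or more. Same-numbered libraries did not deviate together (correlations of 0.07, -0.02 and 0.02), so the numbers were not used as pairs. Intervals cover the spread between libraries of this depth only. Some marker genes of the line are not reported here.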

Additional observations from a re-analysis of the deposited data

How the results depend on the processing

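The falls of DUSP1, DUSP5 and EGR1 passed under each of the 16 alternatives run, and 3 genes were lower under every one. The count of genes higher was 1, or 0 with the Wald test of DESeq2, and 0 to 1 when a library was left out. The count past a minimum fold of 1.2 was 1, with 0 when libraries were scaled by size only and 1 to 2 when a library was left out. With the replicate block 1 gene was higher and 3 lower, and 9139 genes passed in all. The labels do not say whether same-numbered libraries shared more than the number. No library left out changed the count of lower genes, which was 3 to 3.

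DUSP4 turned positive with library size only (0.036), with log2(FPKM + 0.1) (0.035) and with log2(FPKM + 1) (0.03). SPRY4 ran from -0.02 to 0.28 when a library was left out. The change in the log2 ratio of DUSP7 to DUSP6 (0.05) ran from -0.14 to 0.16 and that of SPRY4 to SPRY2 (-0.15) from -0.357 to 0.0113, with -0.00377 for DUSP7 to DUSP6 without MTA1 replicate 3. The cause was not tested. The summed FPKM of DUSP6 and DUSP7 was higher in the MTA1 group by 0.193, and with DUSP9 added, a choice made after seeing the data, the difference was -4.17, DUSP9 being more abundant than both. Of all tested genes, 29.7% passed with no filter and 41.8% with DESeq2. With scaling by library size, 60.1% of the genes that passed were higher, against 50.8% with TMM, and the median of all genes moved by 0.07. With a filter of 1 CPM in 3 libraries SPRY2 and SPRY4 were not tested. Counts of 14 to 44 limit both.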
